A study of Mus musculus with 6 samples.

Results

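Aminoacyl-tRNA synthetases, the enzymes that attach each amino acid to its tRNA, were followed in stretched and unstretched C2C12 cells. The members were chosen by name from the gene symbols of the expression table: symbols of the synthetase pattern, which ends in ars with an optional 1, 2, 3, a or b, the glutamate and proline enzyme Eprs1, and the scaffold proteins Aimp1, Aimp2 and Eef1e1. Of the 22375 genes in the table, 39 were analysed: 20 cytosolic synthetases, 16 mitochondrial synthetases and 3 scaffold proteins. Of the cytosolic enzymes, 7 belong to the multisynthetase complex and 13 do not. All 39 members passed the filter on low values, a mean level of 0.5 FPKM or more across the 6 libraries.

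C2C12 is an established mouse myoblast line, a cell culture model of muscle precursors. The RNA sequencing compared 3 libraries of unstretched cells (CON) with 3 libraries of cells stretched for 4 h (4H). Both groups were C2C12 cells grown in DMEM with fetal bovine serum, and stretching was a cyclic load of 15% elongation on elastic, poly-lysine-coated plates. The study used the stretch to mimic mechanical overloading of muscle. All libraries came from this 1 cell line. The labels call the 3 libraries of a group replicate biosamples but do not say whether they were separate cultures, so p-values measure the spread between these libraries, which may be technical.

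Each synthetase recognises 1 amino acid, or in the case of Eprs1 a pair of them, and charges the matching tRNAs at the cost of ATP. Cytosolic and mitochondrial translation draw on separate enzymes for most amino acids, and the mitochondrial ones are encoded in the nucleus and carry a 2 at the end of their symbols. In animal cells, several cytosolic synthetases sit together with Aimp1, Aimp2 and Eef1e1 in the multisynthetase complex. When charged tRNA runs short, the kinase GCN2 (Eif2ak4) senses uncharged tRNA, phosphorylates eIF2 and favours translation of the transcription factor ATF4, and genes of several cytosolic synthetases are known ATF4 targets.

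The values were FPKM, fragment counts scaled for transcript length and for library size, which hold no read depth, so the depth of each library was unknown. Summed FPKM over the table ranged from 395790 to 397260 in CON and from 385146 to 387516 in 4H. Myoblast markers were expressed in every library, with a summed level over the 8 markers of 207.8 to 212.3 FPKM in CON and 290.8 to 304.3 FPKM in 4H, 6 of them higher and 1 lower by the test. Myod1, a defining myoblast factor, had 5.37, 4.48 and 5.55 FPKM in the CON libraries and 18.5, 17.4 and 18.8 FPKM in the 4H libraries. Myf5, another one, went the other way, from 15.8 ± 0.851 to 9.82 ± 1.13 FPKM (SD, n = 3), and Pax7 stayed under 0.61 FPKM in all 6 libraries. Macrophage markers summed to 6.73 to 8.51 FPKM in CON and 16.5 to 18.5 FPKM in 4H, where Cd68 and Csf1r were higher and the defining markers Ptprc and Adgre1 were at 0. Endothelial markers summed to 0.101 to 0.122 FPKM in CON and 0.254 to 0.387 FPKM in 4H, and epithelial markers to at most 0.117 and 0.553 FPKM. The 7 myotube markers summed to 1.80 to 2.40 FPKM in CON and 3.09 to 3.74 FPKM in 4H, where the 2 that passed the filter on low values, Mymk and Acta1, were higher, while Myog, a defining myotube factor, was at most 0.281 FPKM in CON and 0.0794 FPKM in 4H. The part of these marker levels in the results on the synthetases was not tested. Since the samples were bulk, fewer cells of a type and less RNA per cell cannot be told apart.

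After 4 h of stretch, most cytosolic synthetases were lower and most mitochondrial ones did not pass the test. Of the 39 members, 21 were lower and 2 were higher in 4H (limma on log2(FPKM + 0.5), adjusted p of at most 0.05 over the 11593 genes tested), and 16 did not pass. Over all genes tested, 24.1% were lower and 22.6% were higher by the same rule. At the stricter rule, which also asks for a change of 1 or more on the log2 scale in either direction, 6 members were lower and 0 were higher, against 1.28% of all genes lower and 2.61% higher. The 6 were Wars1, Sars1, Lars1, Nars1, Gars1 and Eprs1, all cytosolic. In 22 members every 4H library lay below every CON library and in 3 every 4H library lay above, which held for 29.2% and 27.5% of all genes. Most cytosolic members were abundant, and among the 2577 tested genes whose mean level was 30 FPKM or more, 38% were lower.

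By compartment, 16 of the 20 cytosolic synthetases were lower, 2 were higher and 2 did not pass, with a median log2 fold change of -0.76. Of the 16 mitochondrial synthetases, 4 were lower, 0 were higher and 12 did not pass, with a median of -0.07. The scaffold proteins gave 1 lower and 2 that did not pass, with a median of -0.08. The median over all genes tested was -0.01, with 24.1% lower and 22.6% higher. The share of lower genes among the mitochondrial synthetases was near that of all genes.

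**Figure D1:**
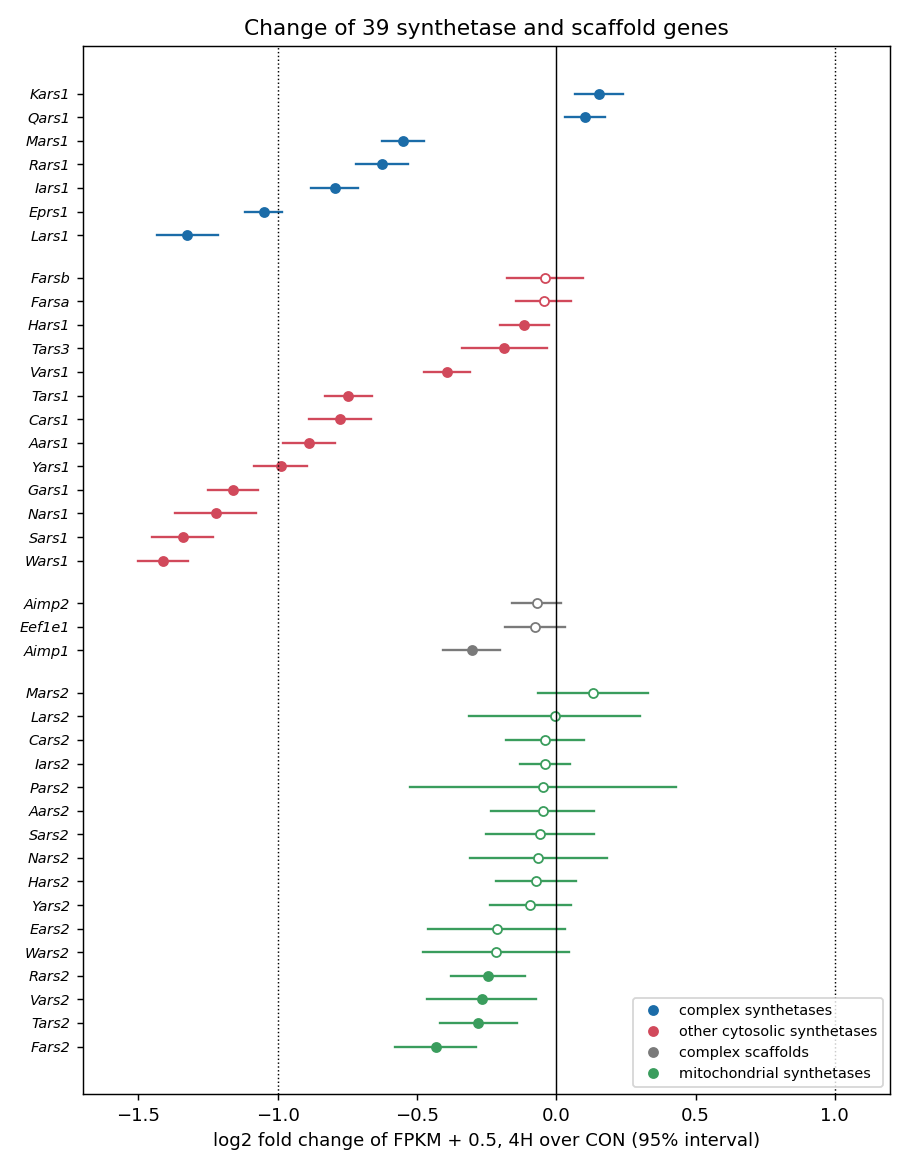
Log2 fold change of FPKM + 0.5 in 4H over CON for each of the 39 members, grouped as complex synthetases, other cytosolic synthetases, scaffolds and mitochondrial synthetases. Points are estimates from 3 libraries a group, bars are 95% intervals, and filled points have an adjusted p of at most 0.05 and dotted lines mark the fold threshold. Cytosolic members spread from -1.41 to 0.15, while mitochondrial members stay between -0.43 and 0.13.

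Of the cytosolic enzymes outside the complex, 11 of 13 were lower, 0 were higher and 2 did not pass, with a median log2 fold change of -0.78. The share of lower genes was 24.1% over all genes tested and 38% among genes at 30 FPKM or more. Wars1 (ENSMUSG00000021266), which charges tRNA with tryptophan, had 84.3, 79.9 and 85.8 FPKM in the CON libraries and 31.0, 30.3 and 31.7 FPKM in the 4H libraries. Its mean went from 83.3 ± 3.09 to 31.0 ± 0.684 FPKM (SD, n = 3), a log2 fold change of -1.41 (SE 0.04, limma, adjusted p = 1.14e-07). The 4H libraries were close to each other and all below the lowest CON library, at a ratio of means of 0.372. Sars1 (ENSMUSG00000068739), the seryl-tRNA synthetase, which also provides the seryl-tRNA from which selenocysteine is made, had 289.5, 293 and 291 FPKM in the CON libraries and 114, 123 and 107 FPKM in the 4H libraries. This was a log2 fold change of -1.34 (SE 0.05, limma, adjusted p = 3.7e-07), with no overlap between the groups. Nars1 (ENSMUSG00000024587), the asparaginyl-tRNA synthetase, was the most abundant member in CON, with 376, 391 and 390.4 FPKM in the CON libraries and 176, 173 and 147 FPKM in the 4H libraries. It fell from 386 ± 8.84 to 166 ± 15.8 FPKM (SD, n = 3), a log2 fold change of -1.22 (SE 0.06, limma, adjusted p = 2.5e-06), and 4H replicate 3 was the lowest library. Gars1 (ENSMUSG00000029777), the glycyl-tRNA synthetase, serves both cytosol and mitochondria from 1 gene. It had 291, 297 and 299.7 FPKM in the CON libraries and 135, 137 and 124 FPKM in the 4H libraries, a log2 fold change of -1.16 (SE 0.04, limma, adjusted p = 2.93e-07), so that every 4H library was far below the CON range.

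The next members were lower by smaller amounts. Yars1 (ENSMUSG00000028811), the tyrosyl-tRNA synthetase, had 86.2, 87.3 and 92.8 FPKM in the CON libraries and 44.6, 45.9 and 42.8 FPKM in the 4H libraries and lay just short of the fold threshold, with a log2 fold change of -0.99 (SE 0.04, limma, adjusted p = 8.78e-07). Without CON replicate 1 or 4H replicate 2, its log2 fold change was -1.01, and without CON replicate 2 it also reached the fold threshold. The count of members past both thresholds was 7 in each of these cases. Aars1, which charges alanine, fell from 107 ± 2.19 to 57.7 ± 2.84 FPKM (SD, n = 3), a log2 fold change of -0.89, but 13.2% of its 75-base stretches also occur in other genes and it overlaps an exon of another gene on the same strand, so its value is less certain. Cars1, the cysteinyl-tRNA synthetase, had a log2 fold change of -0.78, Tars1, the threonyl-tRNA synthetase, of -0.75, and Vars1, the valyl-tRNA synthetase, of -0.39, with adjusted p-values (limma) of 6.47e-06, 1.9e-06 and 6.11e-05. In all 5 genes the CON and 4H libraries did not overlap.

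At the lower end of the group, calls depended on single libraries. Tars3, a second cytosolic threonyl-tRNA synthetase, was the least abundant cytosolic member, with 7.04, 6.80 and 7.40 FPKM in the CON libraries and 6.14, 6.46 and 5.90 FPKM in the 4H libraries. Its log2 fold change of -0.19 (SE 0.07, limma, adjusted p = 0.0497) lost the call when any 1 of the 6 libraries was left out, with adjusted p-values over all alternatives of 0.0304 to 0.148, and it shares an exon region with another gene on the same strand. Hars1 (ENSMUSG00000001380), the histidyl-tRNA synthetase, had 62.8, 62.0 and 67.4 FPKM in the CON libraries and 59.3, 59.0 and 59.1 FPKM in the 4H libraries. Its log2 fold change of -0.11 (limma, adjusted p = 0.0391) was lost without any 1 library other than CON replicate 2, over a range of 0.0338 to 0.126 across the alternatives. Farsa and Farsb, which encode the subunits of the phenylalanyl-tRNA synthetase, did not pass. Farsa had 93.4 ± 3.11 FPKM (SD, n = 3) in CON and 90.5 ± 4.46 FPKM (SD, n = 3) in 4H, with a log2 fold change of -0.05 (95% interval -0.15 to 0.05). Farsb had 56.8 ± 4.92 FPKM (SD, n = 3) in CON and 55.1 ± 1.44 FPKM (SD, n = 3) in 4H, with a log2 fold change of -0.04 (95% interval -0.18 to 0.10). Both intervals were narrow and included no change, whereas most other cytosolic enzymes lay well below it.

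Within the multisynthetase complex the 7 synthetases did not move as a unit: 5 were lower and 2 were higher (median log2 fold change -0.62). For all genes tested the shares were 24.1% lower and 22.6% higher. Lars1 (ENSMUSG00000024493), the leucyl-tRNA synthetase, known also as a leucine sensor for the growth kinase mTORC1, had 156, 148 and 154 FPKM in the CON libraries and 61.6, 64.1 and 56.6 FPKM in the 4H libraries. It fell from 153 ± 4.00 to 60.7 ± 3.83 FPKM (SD, n = 3), a log2 fold change of -1.32 (SE 0.05, limma, adjusted p = 4.03e-07). Eprs1 (ENSMUSG00000026615), which joins the glutamyl- and prolyl-tRNA synthetases in 1 protein, had 181, 183 and 184 FPKM in the CON libraries and 86.4, 90.5 and 86.8 FPKM in the 4H libraries. All 4H libraries lay below all CON libraries, a log2 fold change of -1.05 (SE 0.03, limma, adjusted p = 1.2e-07). Iars1, for isoleucine, had a log2 fold change of -0.80, Rars1, for arginine, of -0.62, and Mars1, which charges both initiator and elongator methionine tRNAs, of -0.55. The largest adjusted p of these 5 genes was 8.46e-06 (limma), and in none of them did the groups overlap.

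The other complex synthetases were slightly higher. Kars1 (ENSMUSG00000031948), the lysyl-tRNA synthetase, which like Gars1 serves both compartments, had 74.2, 76.5 and 80.9 FPKM in the CON libraries and 86.4, 85.4 and 85.8 FPKM in the 4H libraries. It rose from 77.2 ± 3.40 to 85.9 ± 0.496 FPKM (SD, n = 3), a log2 fold change of 0.15 (SE 0.04, limma, adjusted p = 0.00971). Qars1 (ENSMUSG00000032604), for glutamine, had 47.8, 49.5 and 48.1 FPKM in the CON libraries and 52.3, 52.0 and 51.8 FPKM in the 4H libraries, a log2 fold change of 0.10 (SE 0.03, limma, adjusted p = 0.0279). This small rise lost its call without each single library other than CON replicate 2, without the mean-variance trend and with a replicate block, with adjusted p-values over the alternatives of 0.00803 to 0.0816. Thus Gars1 and Kars1, the enzymes that supply both compartments, moved in opposite directions.

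Of the scaffold proteins that hold the complex together, Aimp1 (ENSMUSG00000028029) had 66.3, 63.0 and 64.1 FPKM in the CON libraries and 53.2, 49.1 and 54.1 FPKM in the 4H libraries. It fell by a modest amount, a log2 fold change of -0.30 (SE 0.04, limma, adjusted p = 0.000762), without overlap between the groups. Aimp2 (ENSMUSG00000029610) had 32.2, 32.9 and 33.4 FPKM in the CON libraries and 30.7, 32.2 and 30.8 FPKM in the 4H libraries, with a log2 fold change of -0.07 (95% interval -0.16 to 0.02). A share of 25.1% of the 75-base stretches of Aimp2 recurs in other genes. Eef1e1 (ENSMUSG00000001707), which links the complex to elongation factors, had 17.6, 18.9 and 18.8 FPKM in the CON libraries and 17.8, 17.1 and 17.3 FPKM in the 4H libraries, with a log2 fold change of -0.08 (95% interval -0.18 to 0.03). Neither passed the test, with adjusted p-values (limma) of 0.16 and 0.214, and for both the interval leaves out the estimate for Aimp1.

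**Figure D2:**
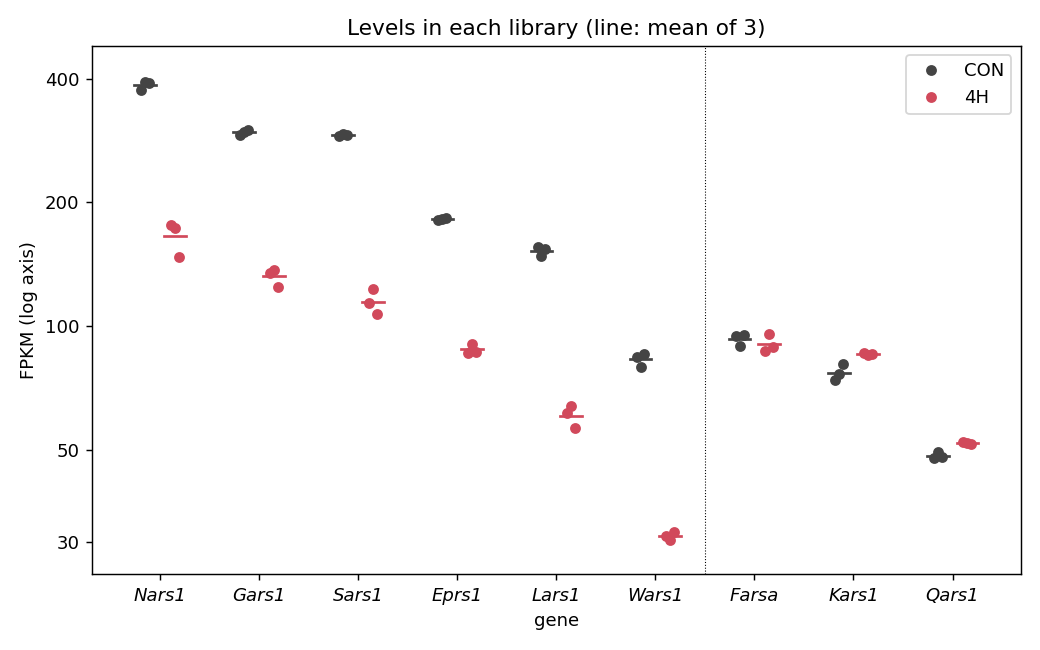
FPKM on a log axis in the 3 CON and the 3 4H libraries for the 6 members past both thresholds and for Farsa, Kars1 and Qars1. Each point is 1 library and each short line is the mean of 3. The 6 lie between 79.9 and 391 FPKM in CON and between 30.3 and 176 FPKM in 4H, whereas the points of the other 3 genes overlap or lie close together.

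The levels of the cytosolic enzymes were spread less widely in every 4H library than in any CON library. FPKM is scaled for transcript length, so levels can be set side by side. Mean levels of the 20 genes ranged from 7.08 to 386 FPKM in CON (median 103) and from 6.16 to 166 FPKM in 4H (median 64.3). Without Tars3, the highest level was 7.86 to 8.11 times the lowest within each CON library and 4.65 to 5.70 times within each 4H library. The SD of the log2 levels of these 19 genes was 0.808 to 0.829 in CON and 0.561 to 0.609 in 4H. Neither range overlapped between the groups, and an exact permutation test of 3 against 3 libraries cannot give a p below 0.1. The genes that fell most were largely those with high CON levels. The CON mean is also part of the fold change, so level and change are not independent. Wars1, with the largest fall, had a CON mean of 83.3 FPKM, under that of Farsa at 93.4 FPKM. With a division chosen after the values were seen, 14 genes fell by 0.39 to 1.41 on the log2 scale and the next gene stood at -0.19. The lowest CON mean among the 14 was 78.7 FPKM and the highest among the other 6 was 93.4 FPKM, so the CON levels of these groups met only in that range.

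Summed over members, synthetase mRNA took 0.726% to 0.734% of all FPKM in the CON libraries and 0.433% to 0.455% in the 4H libraries, a ratio of means of 0.613. The cytosolic sum was 2611 ± 21.6 FPKM (SD, n = 3) in CON and 1477 ± 48.0 FPKM (SD, n = 3) in 4H, a ratio of 0.566. The mitochondrial sum was 165.5 ± 4.56 FPKM (SD, n = 3) in CON and 149.6 ± 1.11 FPKM (SD, n = 3) in 4H, a ratio of 0.904. None of the 3 sums overlapped between the groups, and each gave a two-sided exact permutation p of 0.1, the smallest that 3 against 3 libraries allow.

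Mitochondrial synthetases were expressed at far lower levels, with mean levels of 2.37 to 30.4 FPKM in CON (median 6.77) and 2.65 to 24.9 FPKM in 4H (median 5.73). Fars2 (ENSMUSG00000021420), the phenylalanyl enzyme of mitochondria, had 7.08, 6.85 and 7.41 FPKM in the CON libraries and 5.17, 5.07 and 5.19 FPKM in the 4H libraries. With a log2 fold change of -0.43 (SE 0.06, limma, adjusted p = 0.000761), it was the most reduced of them. Tars2 (ENSMUSG00000028107), for threonine, had 32.0, 28.4 and 30.7 FPKM in the CON libraries and 23.2, 26.1 and 25.5 FPKM in the 4H libraries, a log2 fold change of -0.28 (SE 0.06, limma, adjusted p = 0.00599). Both genes were lower in every 4H library than in any CON library. Rars2 (ENSMUSG00000028292), for arginine, had 17.3, 18.0 and 17.9 FPKM in the CON libraries and 14.5, 14.2 and 16.1 FPKM in the 4H libraries, a log2 fold change of -0.24 (SE 0.06, limma, adjusted p = 0.0089). Vars2 (ENSMUSG00000038838), for valine, had 5.95, 5.81 and 6.46 FPKM in the CON libraries and 4.56, 4.84 and 5.50 FPKM in the 4H libraries, a log2 fold change of -0.27 (SE 0.09, limma, adjusted p = 0.0324). Without 4H replicate 1, 4H replicate 2, CON replicate 1 or CON replicate 3 it did not pass, over a range of 0.0162 to 0.107. No mitochondrial gene reached a log2 fold change of -1.

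The other 12 mitochondrial enzymes did not pass, with adjusted p-values (limma) of 0.137 to 0.979. Wars2 had 4.59 ± 0.680 FPKM (SD, n = 3) in CON and 3.86 ± 0.303 FPKM (SD, n = 3) in 4H and a log2 fold change of -0.22 (95% interval -0.48 to 0.04), which passed without CON replicate 3 at -0.33 (adjusted p = 0.034, range 0.034 to 0.393). Ears2, which charges glutamate and starts the indirect route to mitochondrial glutaminyl-tRNA, had 4.50 ± 0.393 FPKM (SD, n = 3) in CON and 3.82 ± 0.482 FPKM (SD, n = 3) in 4H and a log2 fold change of -0.21 (95% interval -0.46 to 0.03). Both estimates were near those of the enzymes that passed, but their intervals included 0. Yars2 (15.6 FPKM in CON, log2 fold change -0.09, 95% interval -0.24 to 0.05), Hars2 (10.0, -0.07, -0.22 to 0.07), Nars2 (3.30, -0.06, -0.31 to 0.18) and Sars2 (5.51, -0.06, -0.25 to 0.14) lay close to 0 on the same scales. So did Aars2 (6.43 FPKM in CON, log2 fold change -0.05, 95% interval -0.23 to 0.14), Iars2 (23.5, -0.04, -0.13 to 0.05) and Cars2 (10.0, -0.04, -0.18 to 0.10). Iars2 shares 22.1% of its 75-base stretches with other genes. The least certain were Pars2, with 3.32 ± 0.852 FPKM (SD, n = 3) in CON and 3.22 ± 0.938 FPKM (SD, n = 3) in 4H and an interval of -0.52 to 0.43, and Lars2, whose CON libraries held 19.0, 13.4 and 12.7 FPKM and whose interval was -0.31 to 0.30. Mars2 was at 2.37 ± 0.0585 FPKM (SD, n = 3) in CON and 2.65 ± 0.135 FPKM (SD, n = 3) in 4H, higher in every 4H library than in any CON library, and had a log2 fold change of 0.13 (95% interval -0.07 to 0.33). The intervals of these 12 genes ran from -0.52 to 0.43, which leaves out changes as large as those of the 6 cytosolic genes past both thresholds.

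For 16 amino acid pairs the cytosolic enzyme could be set against the mitochondrial one within each library, so that any factor common to a library dropped out. Eprs1 served in 2 pairs, with Ears2 and with Pars2, and Farsa stood for the phenylalanine enzyme. In 13 pairs the cytosolic to mitochondrial ratio was lower in every 4H library than in any CON library, in 1 it was higher and in 2 the groups overlapped. For single genes the corresponding shares were 29.2% lower and 27.5% higher, and no such background was computed for ratios of pairs. The median difference of the log2 ratio was -0.80. The largest were -1.32 for leucine, -1.28 for serine, -1.19 for tryptophan and -1.16 for asparagine. As FPKM ratios of means, Nars1 stood at 116.8 times Nars2 in CON and 52.5 times in 4H, Sars1 at 52.8 and 21.8 times Sars2, Wars1 at 18.2 and 8.03 times Wars2, and Lars1 at 10.2 and 4.12 times Lars2. The exception was phenylalanine, where the ratio was higher in 4H by 0.39 on the log2 scale. Histidine differed by -0.04 and valine by -0.12, with overlapping groups. Each pair without overlap had a two-sided exact permutation p of 0.1, the smallest possible with 3 against 3 libraries, and 0.114 adjusted over the 16 pairs.

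**Figure D3:**
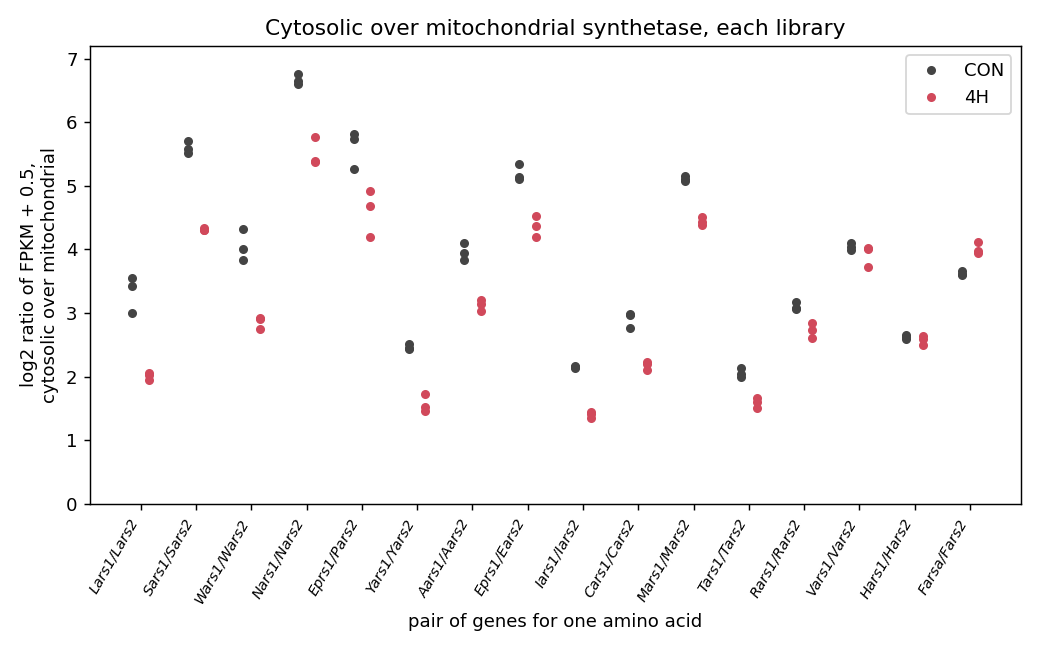
Log2 ratio of the cytosolic to the mitochondrial synthetase of each amino acid, with 1 point for each of the 3 CON and 3 4H libraries. The 4H points lie to the low side of all CON points in 13 of the 16 pairs, and on the high side for phenylalanine, while for histidine and valine the 4H and CON points overlap.

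Promoter sequences were searched for the core of the amino acid response element, at which ATF4 acts together with C/EBP proteins, because several synthetase genes are known targets of ATF4. The letters searched were TGATGNAA on both strands (TTNCATCA on the reverse), in windows of 250 bases before to 50 bases after the transcription start from RefSeq (GRCm38.p6, the assembly that mm10 names). Over all 32851 windows, 3.97% held the motif, and of the 8952 tested genes with a window 2.63% did. A window was found for 30 of the 39 members, and Cars1, Hars1, Lars1, Nars1, Rars1, Vars1, Wars1, Hars2 and Pars2 had no entry. The motif occurred in 5 of the 13 cytosolic synthetases with a window, in 0 of 14 mitochondrial ones and in 0 of 3 scaffold genes. The 5 members are shown as 30 bases around a match, 5′ to 3′ on the strand of the gene, with the motif in capitals.
Iars1: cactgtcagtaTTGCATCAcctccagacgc
Gars1: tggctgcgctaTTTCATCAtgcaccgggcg
Yars1: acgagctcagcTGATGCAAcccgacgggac
Aars1: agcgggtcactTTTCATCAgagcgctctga
Tars1: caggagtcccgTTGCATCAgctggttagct

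The printed stretches lie at chr13:49682126-49682155 on the + strand for Iars1, chr6:55037960-55037989 on the + strand for Gars1, chr4:129189895-129189924 on the + strand for Yars1, chr8:111033840-111033869 on the + strand for Aars1 and chr15:11399655-11399684 on the - strand for Tars1. Counted from the first transcribed base as 1, the capitals began at base 8 of the transcript in Iars1, 30 bases before the start in Gars1, at base 4 of the transcript in Yars1, at base 10 of the transcript in Aars1 and 15 bases before the start in Tars1. Yars1 holds the motif on its own strand and the others on the opposite strand. The 5 genes had log2 fold changes of -1.16 to -0.75 (median -0.89), all 5 lower in 4H. Among the 8 cytosolic genes whose window lacked these letters, 4 were lower, 2 were higher and 2 did not pass, over -1.34 to 0.15 (median -0.12). Sars1 and Eprs1, both past the fold threshold, were among the 8. The 7 cytosolic genes with no entry were all lower, with a median of -0.78. These counts stand beside 24.1% lower and 22.6% higher over all genes tested, and 38% lower among genes at 30 FPKM or more. A match describes the letters in the window and not a bound site, and a window without a match says nothing about the factor.

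A list of genes that sense uncharged tRNA or respond to amino acid shortage was drawn up from general knowledge, with earlier results of these data known. The list also holds genes for subunits of eIF2 and eIF2B. Its counts are therefore a description and not an independent test. Of 20 tested, 16 were lower, 0 were higher and 4 did not pass, with a median log2 fold change of -0.77, and 8 passed both thresholds, against 24.1% lower, 22.6% higher and 1.28% lower past both thresholds over all genes tested. Among genes at 30 FPKM or more, 38% were lower. Trib3 (ENSMUSG00000032715), a pseudokinase induced by ATF4, had 98.9, 94.6 and 94.7 FPKM in the CON libraries and 22.6, 21.4 and 17.6 FPKM in the 4H libraries, a log2 fold change of -2.21 (SE 0.08, limma, adjusted p = 4.9e-07). Asns (ENSMUSG00000029752), which makes asparagine, had 290.3, 291 and 282 FPKM in the CON libraries and 80.6, 83.4 and 79.3 FPKM in the 4H libraries, a log2 fold change of -1.82 (SE 0.03, limma, adjusted p = 1.73e-08). In both genes the 4H libraries were all far below the CON libraries. Atf4 (ENSMUSG00000042406), the transcription factor itself, fell from 416 ± 3.90 to 198 ± 13.2 FPKM (SD, n = 3), a log2 fold change of -1.07 (SE 0.05, limma, adjusted p = 9.06e-07). The kinase gene Eif2ak4, which encodes GCN2, was at 6.71 ± 0.443 FPKM (SD, n = 3) in CON and 7.22 ± 0.276 FPKM (SD, n = 3) in 4H, with a log2 fold change of 0.10 (95% interval -0.06 to 0.26, limma, adjusted p = 0.281). Atf4 and Eif2ak4 were named after their values were seen. Of the 17 genes of this list with a promoter window, 3 held the same motif, shown in capitals for comparison with the synthetase promoters.
Trib3: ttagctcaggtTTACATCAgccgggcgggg
Chac1: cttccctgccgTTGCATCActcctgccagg
Asns: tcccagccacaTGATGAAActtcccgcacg

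These lie at chr2:152344028-152344057 on the - strand for Trib3, chr2:119351038-119351067 on the + strand for Chac1 and chr6:7693214-7693243 on the - strand for Asns (GRCm38.p6). The core in Asns reads on the strand of the gene, as in Yars1, and in Trib3 and Chac1 on the opposite strand, as in the other synthetases. Chac1 encodes an enzyme that degrades glutathione and had a log2 fold change of -1.22 (SE 0.10, limma, adjusted p = 3.28e-05).

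Genes for other steps in the life of a tRNA had medians nearer to 0, and their counts stand beside 24.1% lower and 22.6% higher over all genes tested, or 38% lower among genes at 30 FPKM or more. Of 27 tRNA maturation genes, 10 were lower, 1 was higher and 16 did not pass, with a median log2 fold change of -0.10. Xpot, which exports mature tRNA from the nucleus, stood apart: it had 78.1, 78.9 and 77.9 FPKM in the CON libraries and 41.3, 42.3 and 41.2 FPKM in the 4H libraries, a log2 fold change of -0.90 (SE 0.03, limma, adjusted p = 2.57e-07), and the groups did not overlap. Tsen15, a subunit of the tRNA splicing endonuclease, had a log2 fold change of -0.45 (limma, adjusted p = 0.00153). The 1 higher gene was Pop5, a subunit of RNase P, at 0.16 (adjusted p = 0.0491, named after its value was seen). Of 6 genes that deliver charged tRNA to the ribosome, 5 were lower and 1 did not pass, with a median of -0.27. Eef1a1, the elongation factor that carries aminoacyl-tRNA, fell from 5805 ± 30.6 to 4079 ± 37.0 FPKM (SD, n = 3), a log2 fold change of -0.51 (SE 0.02, limma, adjusted p = 1.03e-06). Eef1b2, a subunit of its exchange factor, had a log2 fold change of -0.37 (limma, adjusted p = 0.000111).

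Of the partners that complete charging in mitochondria, Gatb and Gatc, which encode subunits of the amidotransferase that turns glutamyl-tRNA into glutaminyl-tRNA, had log2 fold changes of -0.42 and -0.33 (limma, adjusted p = 0.0144 and 0.0122). They were the 2 lower genes of 4 tested, with a median of -0.18. This count and those of the next lists stand beside 24.1% lower and 22.6% higher over all genes tested. Among 5 genes for selenocysteine tRNA, which starts from the product of Sars1, 3 were lower and 2 did not pass, with a median of -0.25. Pstk, which phosphorylates seryl-tRNA for that purpose, had a log2 fold change of -0.28, and Eefsec, the selenocysteine elongation factor, of -0.28 (limma, adjusted p = 0.0329 and 0.0366). Of 6 editing and proofreading genes, which remove wrongly attached amino acids, only Aarsd1 was lower, at -0.23 (adjusted p = 0.02), 5 did not pass, and the median was -0.13. The medians of these lists lay between that of the mitochondrial synthetases and -0.27, and that of the response genes was close to that of the cytosolic synthetases. All lists were drawn up with earlier results of these data known.

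**Figure D4:**
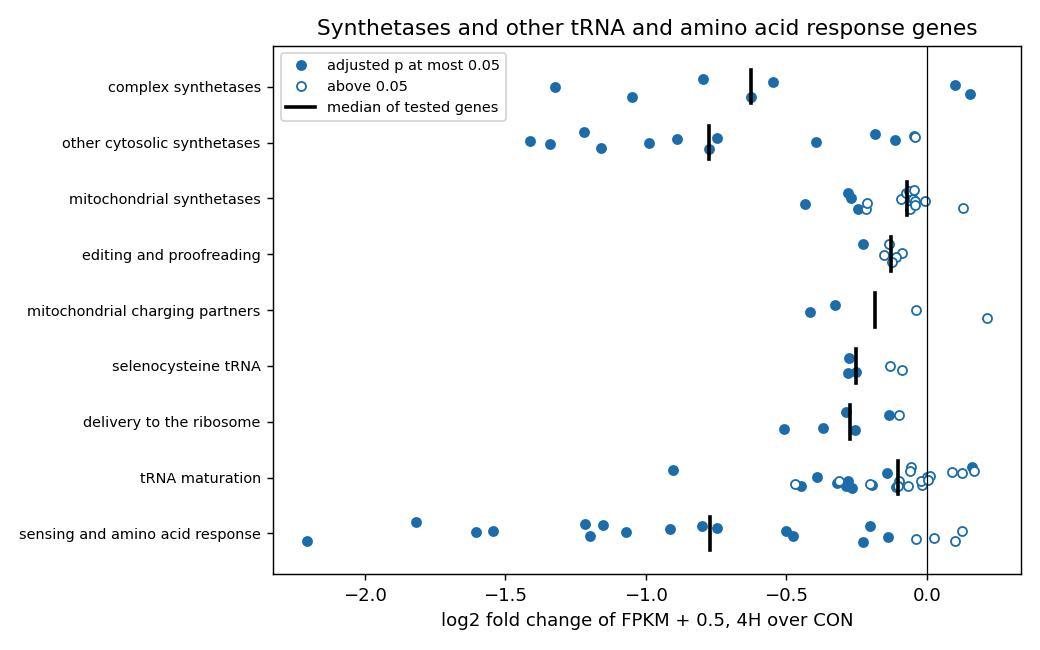
Log2 fold change of FPKM + 0.5 in 4H over CON for each tested gene of the synthetase groups and of 6 lists of other tRNA and amino acid response genes. Filled points have an adjusted p of at most 0.05, open points lie above it, and black bars are medians of the tested genes. Response genes and cytosolic synthetases reach furthest to the left, and Xpot is the lowest point of tRNA maturation at -0.90.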

How the data were processed

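RNA-seq of poly(A)-selected RNA from 6 libraries was analysed, 3 CON and 3 4H, grouped by the treatment in the labels. Replicate numbers follow the sample descriptions, so that 4H replicates 1, 2 and 3 are the libraries titled 4H1, 4H3 and 4H4. The authors deposited 1 table of FPKM values per gene and library, with no counts. Reads were aligned to mm10 per the submitters' processing notes, while no aligner, counter or annotation is named in the sources used here. FPKM keeps no read depth, so intervals reflect the spread between libraries. All sample columns belonged to the 6 libraries. The study tested counts with DESeq2, which FPKM does not allow.

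The 11593 genes whose mean level was 0.5 FPKM or more were tested on log2(FPKM + 0.5) with limma 3.58.1 (lmFit and eBayes with trend, two-sided, R 4.3.3), with Benjamini-Hochberg adjustment over all of them. The pseudocount of 0.5 understates the change of low genes. Thresholds were an adjusted p of at most 0.05 and, for differential expression, a change of 1 or more on the log2 scale in either direction, and intervals are 95%. The procedure was tested on simulated data. Ratios and sums were compared by two-sided exact permutation of 3 against 3 libraries (Python 3.11.15, SciPy 1.17.1, pandas 2.3.3, numpy 2.4.6), and plots were drawn with matplotlib 3.10.9.

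Members and lists were chosen with earlier results of these data known, from gene names and general knowledge. The name rule matched 41 genes, and 2 of them are not reported here and were left out of every count of members. Of the promoter matches in the other members, 1 is likewise not shown. Every other member was accounted for. Values in each library were given for members past both thresholds, for up to 5 members with the largest rise and fall in each compartment, for the scaffolds and for Gars1, Kars1 and Tars3, and other lists gave up to 2 genes each by this rule. Yars1, Hars1, Myod1, Atf4, Eif2ak4 and Pop5 were added by choice, and Chac1 because its promoter held the motif. Shared sequence was measured with 75-base stretches of GENCODE mouse transcripts. By these, 4 members had 10% or more of their stretches in other genes or an exon overlap on the same strand, and 15 overlapped another gene on the other strand. The libraries were strand-specific, but no source used here says whether the counting used strand. Alternatives were other pseudocounts and filters, quantile, TPM and median-of-ratios scaling, limma without trend, a replicate block and leaving out each library.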

Additional observations from a re-analysis of the deposited data

How the results depend on the processing

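Under 15 alternatives, 30 of the 39 members kept both their call and their direction, and the count of lower members ranged from 18 to 21. The 2 higher members became 1 without the mean-variance trend, and 1 to 2 when single libraries were left out. The replicate numbers of the descriptions did not pair the libraries (correlations of deviations 0.02, -0.09 and -0.13 for the 3 numbers). A replicate block by these numbers gave 19 lower members, 1 higher member and 6 past both thresholds. By title, 4H3 shares its number with CON replicate 3, at a correlation of 0.18, and a block by title was not tested. The cytosolic median was -0.73 as TPM. The mitochondrial median was -0.11 with quantile scaling, -0.038 as TPM and -0.11 to -0.058 without single libraries. The cytosolic synthetases outside the complex had a median of -0.74 as TPM and -0.82 to -0.75 without single libraries. Signs turned only in members that did not pass: without single libraries, log2 fold changes ranged from -0.093 to 0.026 for Farsb, -0.16 to 0.018 for Nars2, -0.24 to 0.13 for Pars2 and -0.11 to 0.17 for Lars2, and Lars2 was 0.031 as TPM. The causes were not tested. Calls were lost under some alternatives for Qars1, Tars3, Hars1 and Vars2. Leaving out the 4 members with shared sequence or exons, an alternative chosen after seeing the data, left 35 members with 19 lower and 2 higher. With 3 libraries a group and unknown depth, small changes of low genes, such as Pars2, could not be resolved.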

Other observations

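The 19 cytosolic synthetases other than Eprs1 divide by the fold of their catalytic domain into class I and class II enzymes. Of the 9 class I enzymes, 8 were lower in 4H and 1 was higher (median log2 fold change -0.78). Of the 10 class II enzymes, 7 were lower, 1 was higher and 2 did not pass (median -0.47). Both classes held strongly reduced members, Wars1 (-1.41) and Lars1 (-1.32) in class I and Sars1 (-1.34) and Nars1 (-1.22) in class II. Over all genes tested, 24.1% were lower and 22.6% were higher, and 38% were lower among genes at 30 FPKM or more. The difference between the classes was not tested.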
